A study of Mus musculus with 12 samples.

Results

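Liver RNA of male mice lacking selenocysteine lyase (Scly KO) was compared with that of wild-type C57BL/6N mice (WT) on a diet with adequate selenium, using 6 of the 12 libraries of the study and all 12009 genes, of 24795 in the count table, that had enough counts to be tested. WT MS are the 3 libraries (S4, S5 and S6) of wild-type mice fed 0.25 ppm of selenium, given as sodium selenite, and KO MS are the 3 libraries (S7, S8 and S9) of Scly KO mice fed the same diet. The other 6 libraries came from WT (WT LS, S1 to S3) and Scly KO mice (KO LS, S10 to S12) on 0.08 ppm of selenium. They entered the shared fit and were used to set the same genes side by side on the other diet. All mice had been on their diet for at least 8 weeks from weaning. The Scly KO mice were kept as a homozygous colony and the WT mice were bred separately, so that genotype and colony cannot be told apart. The knockout is a whole-body one, and the labels do not say whether the 3 libraries of a group come from 3 mice, so that a p-value measures only the spread between these libraries.

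Selenocysteine lyase breaks the amino acid selenocysteine down into alanine and selenide, and selenide can be used again to make new selenoproteins. Selenoproteins carry selenocysteine at the active site and include the glutathione peroxidases, the thioredoxin reductases, the iodothyronine deiodinases and selenoprotein P, which the liver secretes to carry selenium to other organs. The liver also clears drugs and hormones through nuclear receptors such as PXR and CAR, stores and releases glucose in response to feeding, and handles most amino acids. Levels below are TMM-scaled counts per 1000000 (CPM), and a log2 fold change is KO MS against WT MS, so that a positive value is a higher level in the KO.

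Counts per library ran from 7561008 to 9651901 in the 6 libraries. Rn45s, the gene model of the ribosomal RNA precursor, took 4.58%, 4.47% and 8.50% of the counts in the WT MS libraries S4, S5 and S6. In the KO MS libraries it took 17.0% of S7 and 19.9% of S8 but 2.94% of S9, while the low-selenium libraries held between 2.45% and 9.23%. The KO MS group thus held both the highest shares and 1 of the lowest, and Rn45s itself did not pass the test (log2 fold change 1.46, SE 0.69, unadjusted p = 0.0545 by edgeR). S7 and S8 were also more like each other than either was like S9, with Spearman correlations over genes of 0.973 between S7 and S8, 0.884 between S7 and S9 and 0.937 between S8 and S9. The 3 WT MS libraries correlated at 0.969 to 0.987, S9 correlated at 0.984 with S4, and S8 at 0.983 with S6. Relative to the WT MS mean, the deviation of a gene was correlated with its transcript length at -0.447 in S7, -0.189 in S8 and 0.463 in S9, over 11862 genes that share those libraries. Among the WT MS libraries, each set against the mean of the other 2, it was 0.372 in S4, -0.229 in S5 and -0.278 in S6. Results are therefore given by library, and with and without S7 and S8 or S9, and the part of the Rn45s share and of transcript length in them was not tested. Hepatocyte markers such as albumin and transthyretin were abundant in all 6 libraries, with summed levels of 12 markers between 116500 and 148500 CPM, and none of the 12 was at an unadjusted p under 0.05.

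Scly, on chromosome 1 (91298338 to 91321080, plus strand, mm10), had 92.2, 105 and 88.3 CPM in the WT MS libraries and 6.35, 6.90 and 6.32 CPM in the KO MS libraries. The 3 KO libraries lay far below every WT library and close to each other, whatever their Rn45s share. The mean fell from 95.3 ± 8.91 to 6.53 ± 0.327 CPM (SD, n = 3 each), leaving 6.85% of the WT level. Its log2 fold change was -3.87 (SE 0.20, edgeR quasi-likelihood test, Benjamini-Hochberg adjusted p = 4.84e-07). An exact two-sided permutation test of the 3 against 3 values gave p = 0.1, the smallest that this design allows. On low selenium the log2 fold change was -3.97, and the genotype by diet interaction was 0.10 with an unadjusted p of 0.70.

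Scly was the 1 gene of the 12009 that passed the edgeR test at an adjusted p under 0.05, which is 0.00833% of the genes tested. The next smallest adjusted p was 0.695. Without adjustment, 62 genes (0.516%) were higher and 49 genes (0.408%) lower at p under 0.05 or together 111 genes (0.924%). That is fewer than a threshold of 0.05 would give by chance alone, with no gene differing. The count depended on the libraries kept, since 1996 of 12258 genes were at that threshold without S9. In 268 genes (2.23%) all 3 KO MS libraries lay above all 3 WT MS libraries, and in 299 genes (2.49%) they lay below. With 3 against 3 libraries, a separation in either direction has a probability of 0.1 by chance. Both shares together were below that too. DESeq2 called 3 genes (0.025%), namely Scly and Hist1h4n as lower and Ces1g as higher, and 57 genes had no adjusted p. limma voom with a weight for each library called 905 genes (7.54%), 304 higher and 601 lower, after giving S8 a weight of 6.67 against 0.416 for S7 and 0.199 for S9. Among the KO MS libraries that count therefore followed S8 most. The median log2 fold change of all genes was 0.03, with 6582 of 12009 above 0 and 163 beyond 1 in either direction.

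**Figure D1:**
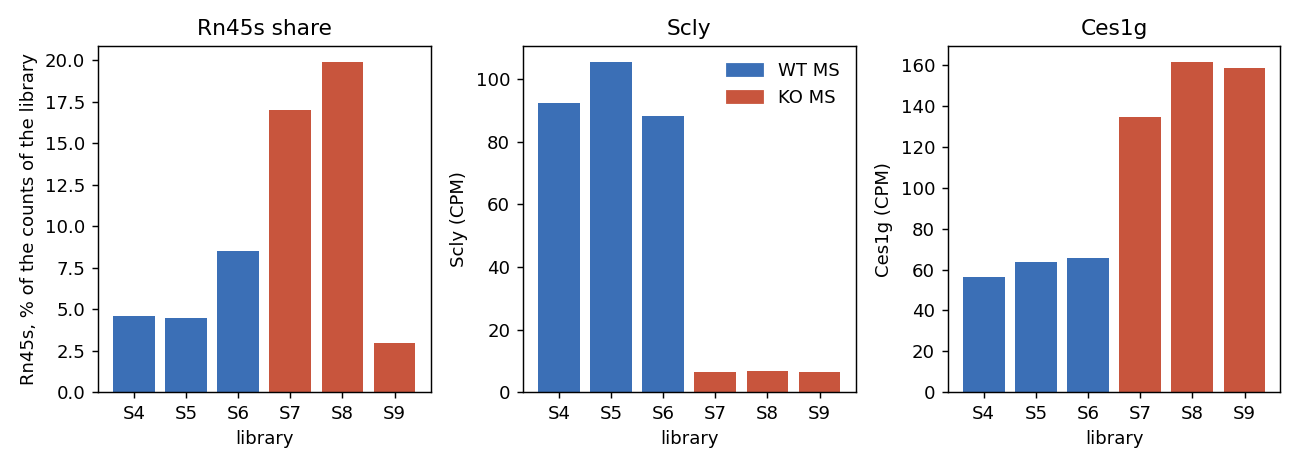
Bars show, for each of the 3 WT MS and 3 KO MS libraries, the share of counts assigned to Rn45s (left, percent of the library) and the levels of Scly (middle) and Ces1g (right) in CPM, with 1 bar a library and no error bar. Rn45s took 17.0% and 19.9% of S7 and S8 but 2.94% of S9, while Scly was between 6.32 and 6.90 CPM and Ces1g between 135 and 161 CPM in all 3 KO libraries.

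Ces1g (chromosome 8, 93302369 to 93337209, minus strand) encodes carboxylesterase 1G, also called Es-x, an enzyme of lipid and drug ester hydrolysis in the mouse liver. It was at 56.2, 63.9 and 65.5 CPM in WT MS and at 135, 161 and 159 CPM in KO MS. The 2 groups did not overlap, and each KO library was at more than 2 times the level of the highest WT library. The mean was 61.9 ± 4.95 CPM in WT MS and 152 ± 14.6 CPM in KO MS (SD, n = 3 each), a log2 fold change of 1.29 (SE 0.27). The difference had an adjusted p of 0.017 with DESeq2 and 0.0012 with limma voom but did not pass with edgeR (unadjusted p = 0.000389, adjusted p = 0.9995). The log2 fold change was 1.26 without S9 and 1.35 without S7 and S8, so its size did not depend on which of these libraries were kept. On low selenium it was 0.75, with an unadjusted p of 0.0159.

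Hist1h4n, a histone H4 gene model on chromosome 13 (21811784 to 21832158, plus strand), was at 2.77, 13.7 and 6.51 CPM in WT MS and at 0.276, 0.157 and 0 CPM in KO MS. These levels rest on 200 counts in WT MS and 3 in KO MS, a ratio of 0.0159 with a 95% interval for counting error of 0.00325 to 0.0472. DESeq2 called it with an adjusted p of 0.000262 and limma voom with 0.0217, whereas edgeR gave 0.695. The gene model overlaps that of Hist1h4m on the same strand, and reads that fit both were split between them by the counting program. Hist1h4m was at 20.1, 21.7 and 18.7 CPM in WT MS and at 63.5, 44.1 and 16.8 CPM in KO MS, high in S7 and S8 and low in S9. The sum of the pair was 27.8 ± 6.66 CPM in WT MS and 41.6 ± 23.6 CPM in KO MS (SD, n = 3 each), so that the lower level of Hist1h4n did not extend to the pair. Both gene levels are uncertain for this reason.

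Immediate-early and stress-induced genes had lower levels in the KO MS livers, and no other list described here held as many members at an unadjusted p under 0.05. These genes, which encode transcription factors such as the AP-1 subunit Jun, phosphatases and RNA-binding proteins, are switched on within minutes by growth factors, hormones, stress or handling of the tissue. Of 38 listed genes 35 were tested, 28 had a log2 fold change below 0, and the median was -0.70 beside 0.03 over all genes. At an unadjusted p under 0.05, 11 of the 35 (31.4%) were lower, beside 0.408% of all genes, and none was higher. This list was written with earlier results of these data known, and it holds Arl4d, which was chosen for qPCR from these samples. The share is therefore no independent evidence. In 11 members the 3 KO MS libraries lay below all WT MS libraries, beside 2.49% of all genes. None passed the adjusted test with edgeR or DESeq2, and limma voom called 20 of the 35 lower, beside 601 of 12009 genes.

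Dusp1, on chromosome 17, encodes a phosphatase that switches off MAP kinases. It was at 43.3, 54.7 and 34.2 CPM in WT MS and at 5.38, 9.10 and 21.8 CPM in KO MS (log2 fold change -1.85, SE 0.50, unadjusted p = 0.00252). All KO libraries were below all WT libraries, and S9 was the highest of the 3. Gadd45g, a growth arrest and DNA damage gene on chromosome 13, was at 16.2, 124 and 66.3 CPM in WT MS and at 2.76, 14.8 and 2.33 CPM in KO MS (-3.42, SE 0.83, unadjusted p = 0.0012). Its WT libraries spread widely, S4 lay just above the highest KO library, and here S9 was as low as S7. Jun was at 22.4, 25.5 and 33.4 CPM in WT MS and at 5.80, 3.92 and 14.3 CPM in KO MS (-1.73, SE 0.61, unadjusted p = 0.0136). Zfp36, whose product tristetraprolin speeds the decay of cytokine mRNAs, was at 79.6, 62.5 and 69.2 CPM in WT MS and at 20.4, 13.2 and 54.2 CPM in KO MS (-1.26, unadjusted p = 0.0146). In both genes the groups were apart and S9 was the highest KO library, in Zfp36 nearer to WT MS than to S7 and S8. Without S7 and S8 the log2 fold changes of Dusp1 and Jun were -1.03 and -0.93.

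Ptp4a1, a tyrosine phosphatase, had 119, 129 and 136 CPM in WT MS and 67.3, 71.7 and 92.6 CPM in KO MS (-0.73, SE 0.20, unadjusted p = 0.00255). Arl4d, a small GTPase related to the ADP-ribosylation factors, had 35.6, 15.1 and 35.8 CPM in WT MS and 9.52, 9.88 and 21.5 CPM in KO MS (-1.07, unadjusted p = 0.0109). Its groups overlapped, since S9 was above S5, and the value was -0.43 without S7 and S8. Cebpd, a C/EBP transcription factor of the acute phase, had 5.91, 9.16 and 10.4 CPM in WT MS and 4.97, 5.33 and 5.16 CPM in KO MS (-0.72, unadjusted p = 0.0157), the tightest KO values of these genes. Nfil3, a repressor tied to the circadian clock, had 9.18, 15.6 and 15.3 CPM in WT MS and 8.97, 7.37 and 7.69 CPM in KO MS (-0.74, unadjusted p = 0.0333). The other members at that threshold were Ier2 (-0.69), Csrnp1 (-0.94) and Plk3 (-1.37).

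Members that did not reach it included Egr1, a zinc finger transcription factor, at 7.67, 15.4 and 14.1 CPM in WT MS and 0.966, 2.04 and 6.71 CPM in KO MS (-1.88, unadjusted p = 0.0611), and Fos, at 1.13, 1.12 and 1.54 CPM in WT MS and 0.138, 0.314 and 1.17 CPM in KO MS (-1.09, unadjusted p = 0.0965). Cebpb was at 68.8, 67.6 and 61.8 CPM in WT MS and 19.5, 19.3 and 72.4 CPM in KO MS, so that S7 and S8 were low and S9 was above every WT library. Members above 0 included Mcl1 (0.08), an anti-apoptotic BCL2 relative, Klf10 (0.17) and Sertad1 (0.31). Values of Fos, Cebpb, Mcl1, Klf10 and Sertad1 are given here after they were seen.

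**Figure D2:**
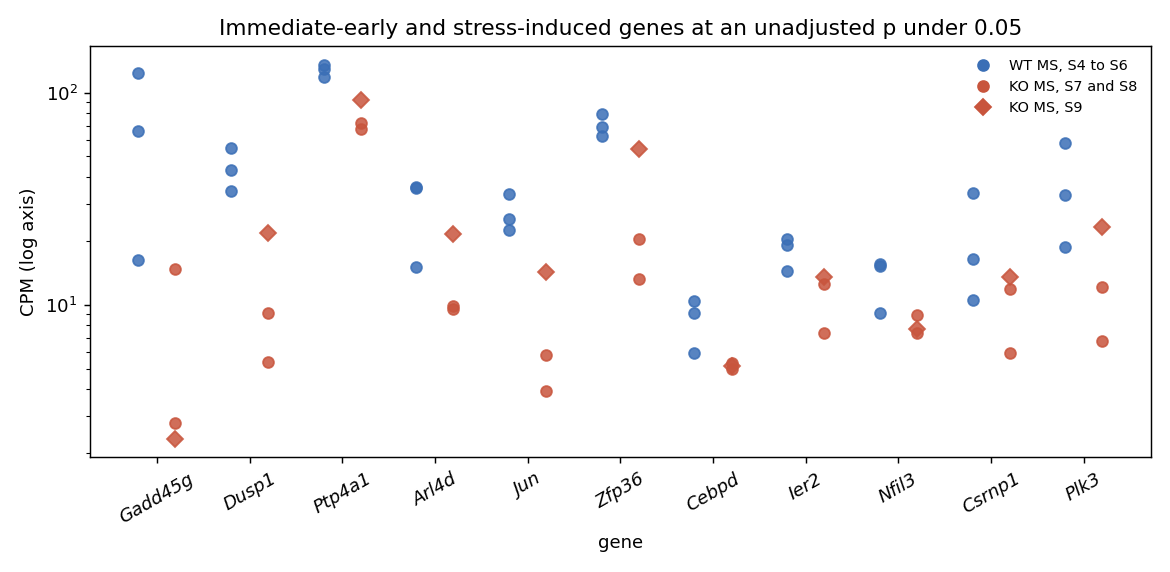
Each point is the level of 1 library in CPM on a log axis for the 11 immediate-early and stress-induced genes at an unadjusted p under 0.05, with WT MS in blue, S7 and S8 as red circles and S9 as a red diamond. In Dusp1, Jun and Zfp36 the diamond sits between the other KO libraries and WT MS, and in Gadd45g, at 2.33 CPM, it is the lowest point.

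The lower levels were seen in all KO MS libraries but were larger in S7 and S8. Of the 35 genes, 23 were below the lowest WT MS library in S7, 22 in S8 and 15 in S9, beside 39.6%, 31.3% and 31.4% of all genes. Their summed level was 1054, 1341 and 1129 CPM in WT MS and 665, 675 and 901 CPM in S7, S8 and S9. Without S9 the median was -0.88 and 18 members were lower at an unadjusted p under 0.05, beside 1137 of 12258 genes. Without S7 and S8 the median was -0.39, with 31 of 37 members below 0 and 1 at that threshold, Gadd45g (-4.89). The time from death to freezing of each liver is not given in the sources used here.

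Promoters of the list were read for the cyclic AMP response element (CRE), the site of CREB and ATF proteins known from Fos and other genes of this kind. Of the 35 genes, 29 matched a RefSeq promoter (GRCm38.p6), and the 250 bases before the start were searched on both strands. The core letters TGACG were found in 15 of the 29 (51.7%), beside 17.9% of 27025 promoters and 27.2% of the 9434 of tested genes. The full element TGACGTCA, which contains the core, was found in 4 (13.8%), beside 1.62% and 2.72%. Of the 11 genes at an unadjusted p under 0.05, 9 matched a promoter and 6 held the core. The stretch that holds the matches in each of those 6 is printed below in the direction of transcription, with the matches to TGACG or to its reverse complement CGTCA in capitals, to show how the letters sit in the genes with the lower levels. A match is a description of the letters and not a mapped binding site.
Dusp1, chr17:26508568-26508703, minus strand: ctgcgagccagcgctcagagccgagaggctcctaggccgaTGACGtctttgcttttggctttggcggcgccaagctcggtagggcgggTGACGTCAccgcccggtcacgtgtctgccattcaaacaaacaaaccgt
Ptp4a1, chr1:30949756-30949911, minus strand: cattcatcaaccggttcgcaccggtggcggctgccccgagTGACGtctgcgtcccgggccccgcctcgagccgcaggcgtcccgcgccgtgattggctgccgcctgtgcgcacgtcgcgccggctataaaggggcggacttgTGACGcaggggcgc
Arl4d, chr11:101665291-101665540, plus strand: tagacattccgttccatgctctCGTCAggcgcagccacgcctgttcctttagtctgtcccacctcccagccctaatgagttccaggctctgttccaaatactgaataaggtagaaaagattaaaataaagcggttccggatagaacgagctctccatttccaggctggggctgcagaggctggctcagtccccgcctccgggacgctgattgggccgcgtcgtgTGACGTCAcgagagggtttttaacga
Nfil3, chr13:52981054-52981138, minus strand: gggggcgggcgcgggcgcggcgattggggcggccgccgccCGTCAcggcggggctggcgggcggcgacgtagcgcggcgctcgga
Csrnp1, chr9:119984840-119984924, minus strand: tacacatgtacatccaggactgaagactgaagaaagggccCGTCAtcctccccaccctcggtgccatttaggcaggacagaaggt
Plk3, chr4:117133982-117134135, minus strand: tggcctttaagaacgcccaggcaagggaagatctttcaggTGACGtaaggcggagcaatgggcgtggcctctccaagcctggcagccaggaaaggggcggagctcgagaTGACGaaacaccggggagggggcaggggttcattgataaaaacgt

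Dusp1 and Arl4d hold the full element, while the other 4 hold only the core. The same search found the core in 3 of 37 promoters of the PXR and CAR targets (8.11%) and the full element in none of them.

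Genes that respond to fasting, cyclic AMP and glucocorticoids lay lower in S7 and S8 than in S9. Slc25a25, a mitochondrial ATP-Mg/phosphate carrier induced by fasting and cold in the mouse, was at 360, 366 and 506 CPM in WT MS and at 132, 131 and 246 CPM in KO MS. All KO libraries were below all WT libraries, with S9 the highest of the KO (log2 fold change -1.27, SE 0.34, unadjusted p = 0.00218, and -0.75 without S7 and S8). Tat, the tyrosine aminotransferase, was at 1085, 594 and 916 CPM in WT MS and at 342, 469 and 700 CPM in KO MS (-0.78, unadjusted p = 0.0712). Pck1, which encodes the cytosolic phosphoenolpyruvate carboxykinase of gluconeogenesis, was at 1477, 2622 and 2276 CPM in WT MS and at 1293, 1703 and 2189 CPM in KO MS (-0.30, unadjusted p = 0.435), with overlapping groups. Of the 24 genes of the list, all tested, 10 were above 0 and the median was -0.13. Slc25a25 and Ppp1r3g, a glycogen-targeting subunit of protein phosphatase, were lower at an unadjusted p under 0.05 (8.33%, beside 0.408% of all genes). Slc25a25 was chosen for qPCR from these samples, so the share is no independent evidence. The genes below every WT MS library numbered 13 in S7, 18 in S8 and 3 in S9, beside 39.6%, 31.3% and 31.4% of all genes, and 11 of the 24 were above every WT library in S9, beside 33.7%. Without S9 the median was -0.51 with 7 members lower at that threshold, beside 1137 of 12258 genes. Without S7 and S8 the median was 0.16.

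Few amino acid enzymes were at an unadjusted p under 0.05. In the alanine, aspartate and glutamate list, 28 of 29 genes were tested, and the median was -0.09. The KO MS libraries lay below all WT MS libraries in 3 members and above them in 1, beside 2.49% and 2.23% of all genes. At an unadjusted p under 0.05, 1 member was lower (3.57%, beside 0.408% of all genes). That was Got1, the cytosolic aspartate aminotransferase, at 551, 317 and 358 CPM in WT MS and 237, 195 and 222 CPM in KO MS (log2 fold change -0.91, SE 0.34, unadjusted p = 0.0194). The groups did not overlap, and the 3 KO libraries were close together although they differed in Rn45s share. Gls2, the liver glutaminase, was at 425, 331 and 304 CPM in WT MS and 220, 278 and 245 CPM in KO MS (-0.51, unadjusted p = 0.0544). The alanine aminotransferases, which use the alanine that Scly also makes, did not pass, with log2 fold changes of -0.15 for Gpt (unadjusted p = 0.502) and -0.09 for Gpt2 (unadjusted p = 0.778), values given after they were seen.

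In the glycine, serine and one-carbon list none of 32 tested genes was at an unadjusted p under 0.05, and the median was -0.04. Dmgdh, the dimethylglycine dehydrogenase that makes sarcosine, was at 381, 262 and 296 CPM in WT MS and 207, 301 and 335 CPM in KO MS (-0.16, SE 0.25). Gnmt, which methylates glycine and is among the most abundant liver enzymes, had a log2 fold change of 0.01 (SE 0.38), and its KO values of 2767, 1928 and 860 CPM spread over more than the whole WT range of 1755 to 1960 CPM. Shmt1, the cytosolic serine hydroxymethyltransferase, was at -0.10 (SE 0.33). Ckb, the brain-type creatine kinase, was at 3.15, 3.69 and 4.74 CPM in WT MS and 6.76, 4.71 and 3.99 CPM in KO MS (0.41, SE 0.42). For these 4 genes the standard error was as large as the difference or larger. Serine dehydratase (Sds, -0.68) and its relative Sdsl (-0.51), which feed serine into pyruvate, had unadjusted p of 0.0869 and 0.0718.

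Of the genes of cysteine, taurine and glutathione synthesis 14 of 17 were tested, with a median of -0.03. At an unadjusted p under 0.05, 1 was higher (7.14%, beside 0.516% of all genes). This was Csad, the cysteine sulfinic acid decarboxylase of taurine synthesis, at 26.5, 66.9 and 62.4 CPM in WT MS and 105, 99.5 and 116 CPM in KO MS. The lowest KO library was above the highest WT library, and the means were 52.0 ± 22.1 and 107 ± 8.68 CPM (SD, n = 3 each, log2 fold change 1.04, SE 0.39, unadjusted p = 0.0197). It was 0.97 without S9 and 1.15 without S7 and S8. None of the 21 aminoacyl-tRNA synthetases, which load tRNAs with amino acids, was at that threshold (median 0.03).

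Few genes of foreign compound metabolism were at an unadjusted p under 0.05. PXR and CAR are nuclear receptors that induce cytochromes P450, transferases and transporters when drugs, steroids or bile acids bind. Of 46 listed targets 40 were tested, 29 had a log2 fold change above 0, and the median was 0.29 beside 0.03 over all genes. Ces1g, Abcc3 and Gsta1 were higher at an unadjusted p under 0.05 (7.50%, beside 0.516% of all genes) and none was lower. Ces1g and Abcc3 were chosen for qPCR from these samples, and Gsta1, near 0 in WT MS, could hardly be found lower. The share is therefore no independent evidence. The KO MS libraries lay above all WT MS libraries in 8 members, Ces1g, Abcc3, Gsta1, Cyp3a11, Cyp3a25, Slco1a4, Ugt1a9 and Ces2a, and below them in 1. Over all genes the shares were 2.23% above and 2.49% below. The median of the list was 0.26 without S7 and S8, with 24 of 42 above 0.

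Abcc3, on chromosome 11, encodes the MRP3 pump of the sinusoidal membrane that exports glucuronides and bile acids. It was at 56.7, 41.7 and 50.2 CPM in WT MS and at 72.7, 70.9 and 160 CPM in KO MS (log2 fold change 1.03, SE 0.32, unadjusted p = 0.00716). S9 stood far above the others, and the log2 fold change was 0.54 without it and 1.68 without S7 and S8. Cyp3a11, the main PXR-induced cytochrome P450 of the mouse, was at 415, 766 and 1006 CPM in WT MS and at 3244, 1193 and 1101 CPM in KO MS (1.34, SE 0.62, unadjusted p = 0.0502). Here S7 was the library that stood out, and without S7 and S8 the value was 0.58. Slco1a4, an uptake transporter for organic anions, was at 41.5, 21.8 and 28.5 CPM in WT MS and at 46.0, 46.6 and 62.2 CPM in KO MS (0.75, unadjusted p = 0.0577). Gsta1, a glutathione transferase, was at 0.252, 0 and 0 CPM in WT MS and at 3.04, 0.784 and 0.876 CPM in KO MS, so that a level close to nothing became a low one. The receptors themselves, PXR (Nr1i2, 0.10, unadjusted p = 0.708) and CAR (Nr1i3, 0.43, unadjusted p = 0.477), did not pass. The 2 receptor values are given after they were seen.

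NRF2, the transcription factor that induces antioxidant and conjugating enzymes, had 32 of 34 listed targets tested, 19 of them above 0 with a median of 0.17. Abcc3, Gsta1, Akr1b3 and Mgst3 were higher at an unadjusted p under 0.05 (12.5%, beside 0.516% of all genes) and none was lower. Abcc3 and Gsta1 are also counted among the PXR and CAR targets, with the same limits. Akr1b3, an aldose reductase, was at 0.881, 1.12 and 0.947 CPM in WT MS and 1.79, 4.55 and 2.33 CPM in KO MS (1.53, SE 0.58, unadjusted p = 0.0211). Mgst3, a membrane-bound glutathione transferase, was at 9.94, 9.38 and 11.8 CPM in WT MS and 27.1, 13.8 and 10.8 CPM in KO MS (0.72, unadjusted p = 0.0353), with S9 inside the WT range and a value of 0.05 without S7 and S8. Nqo1, the textbook NRF2 target, was at 5.66, 7.26 and 6.16 CPM in WT MS and 19.1, 8.31 and 5.25 CPM in KO MS (0.76, unadjusted p = 0.103), which is high in S7 and S8 and below WT in S9. The median of the list was -0.06 without S7 and S8.

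Of the carboxylesterases, the family of Ces1g, 15 of 20 were tested, and 12 were above 0 with a median of 0.28. Ces1g, chosen for qPCR from these samples, and Ces2d-ps were higher at an unadjusted p under 0.05 (13.3%, beside 0.516% of all genes). The median was 0.08 without S7 and -0.10 without S7 and S8, with 7 of 15 then above 0. Ces1d, an abundant member that hydrolyses triglycerides, was at 368, 614 and 559 CPM in WT MS and 856, 855 and 563 CPM in KO MS (0.56, unadjusted p = 0.328), so that S9 did not stand apart as it did for Ces1g. The genes of this family are close relatives, and reads could be split between them. Of the aryl hydrocarbon receptor (AHR) genes 8 of 11 were tested, and the receptor Ahr itself was at 31.4, 25.8 and 21.7 CPM in WT MS and 29.1, 45.0 and 49.5 CPM in KO MS (0.65, unadjusted p = 0.0198). Of 10 tested glutathione transferases outside the NRF2 list 4 were above 0 and the median was -0.07. At an unadjusted p under 0.05, 1 was higher (10%, beside 0.516% of all genes). This was Gstt2, at 36.7, 70.5 and 64.1 CPM in WT MS and 136, 112 and 61.7 CPM in KO MS (0.85, unadjusted p = 0.0188), and it was 0.10 without S7 and S8. Cyp17a1, the steroid 17-alpha-hydroxylase, was at 90.3, 26.4 and 38.2 CPM in WT MS and 19.1, 13.3 and 12.1 CPM in KO MS (-1.80, SE 0.51, unadjusted p = 0.00362). Rdh9, a retinol dehydrogenase, was at 93.8, 121 and 124 CPM in WT MS and 171, 178 and 152 CPM in KO MS (0.56, SE 0.22, unadjusted p = 0.0225).

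**Figure D3:**
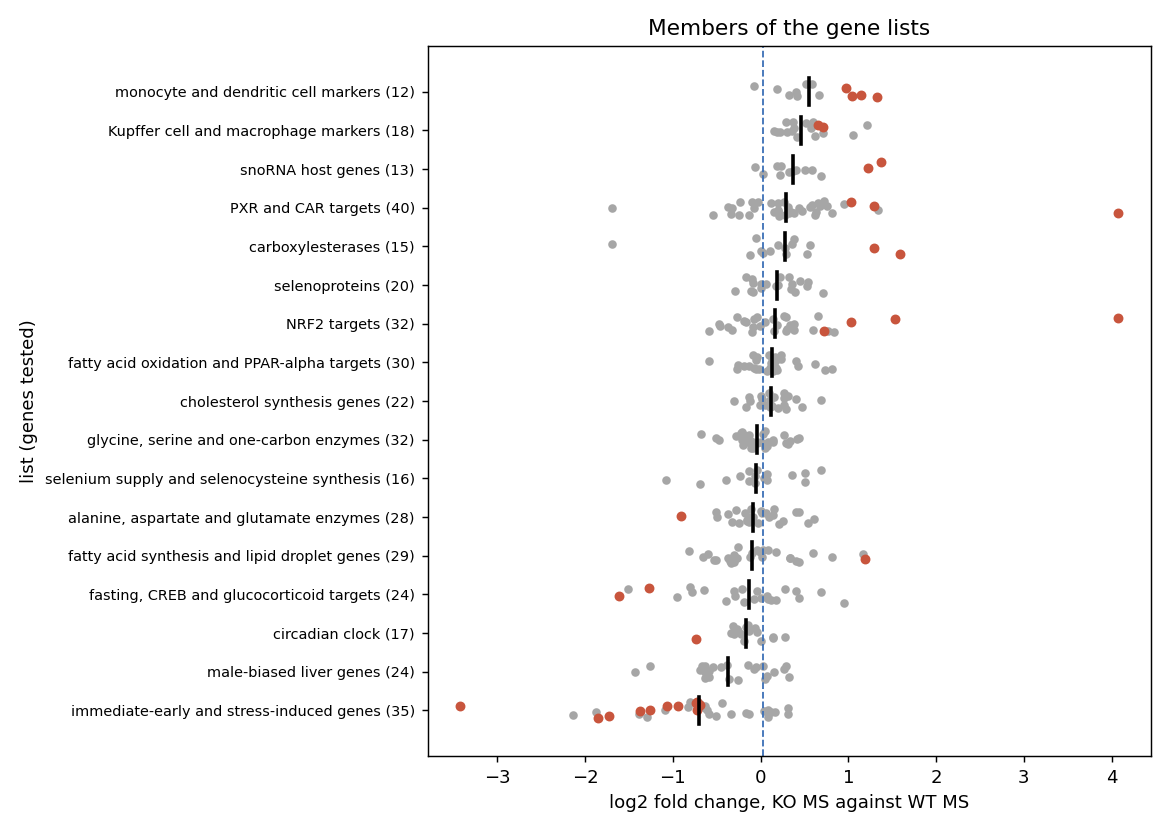
Each point is the log2 fold change, KO MS against WT MS, of 1 tested gene of the list named at the left, where the number in brackets is the count of genes tested. Black ticks are list medians, the dashed line is the median of all genes (0.03), and red points are genes at an unadjusted p under 0.05. The immediate-early list has the lowest median (-0.70), the monocyte and macrophage markers the highest (0.55 and 0.46), and the position of Gsta1 at the far right depends on WT levels near 0.

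As a list, markers of liver macrophages were higher in S7 and S8 and not in S9. All 18 markers of Kupffer cells and macrophages, the resident phagocytes of the liver, were tested, and all 18 had a log2 fold change above 0, with a median of 0.46 beside 0.03 over all genes. Vsig4 and Adgre1 were higher at an unadjusted p under 0.05 (11.1%, beside 0.516% of all genes) and none was lower. Vsig4, a complement receptor of Kupffer cells, was at 18.6, 15.9 and 14.8 CPM in WT MS and 37.8, 22.4 and 20.5 CPM in KO MS (log2 fold change 0.71, SE 0.28, unadjusted p = 0.0240). Adgre1, which encodes the F4/80 antigen, was at 15.5, 14.6 and 16.5 CPM in WT MS and 33.3, 22.6 and 17.5 CPM in KO MS (0.65, SE 0.27, unadjusted p = 0.0285). For both genes every KO library was above every WT library, S7 most and S9 least, and without S7 and S8 the values were 0.31 and 0.16.

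Clec4f, a lectin of mouse Kupffer cells, was at 82.3, 101 and 106 CPM in WT MS and 213, 153 and 70.5 CPM in KO MS (0.59, unadjusted p = 0.164). Cd5l, a secreted macrophage protein, was at 81.0, 91.9 and 80.4 CPM in WT MS and 150, 136 and 77.5 CPM in KO MS (0.52, unadjusted p = 0.0740). Lyz2, the lysozyme of myeloid cells, was at 36.0, 53.8 and 69.0 CPM in WT MS and 192, 97.9 and 41.1 CPM in KO MS (1.06, unadjusted p = 0.0810). In these 3 genes S7 and S8 were above all WT libraries while S9 was within or below their range. The summed level of the list was 662, 806 and 732 CPM in WT MS and 1314, 1005 and 704 CPM in KO MS, and 17, 17 and 5 of the 18 genes were above the highest WT library in S7, S8 and S9, beside 38.3%, 28.75% and 33.7% of all genes. Without S9 the median was 0.72 with 7 members higher at an unadjusted p under 0.05, beside 859 of 12258 genes. Without S7 and S8 it was -0.001 with 9 of 18 above 0 and none at that threshold. In bulk liver RNA, more cells of a type and more RNA per cell cannot be told apart.

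Monocyte and dendritic cell markers followed the same libraries. Of 18 listed 12 were tested, and 11 were above 0 with a median of 0.55. At an unadjusted p under 0.05, 4 (33.3%, beside 0.516% of all genes) were higher, namely Pilra, Clec4a1, Lilra5 and H2-DMb1. Pilra, an inhibitory receptor, was at 1.76, 1.23 and 1.90 CPM in WT MS and 3.87, 3.45 and 2.33 CPM in KO MS (0.97, unadjusted p = 0.0120). Lilra5, a leukocyte receptor, was at 2.26, 2.57 and 3.67 CPM in WT MS and 10.2, 6.28 and 2.53 CPM in KO MS (1.14, unadjusted p = 0.0215), and -0.18 without S7 and S8. The summed level was 127, 116 and 82.9 CPM in WT MS and 187, 174 and 105 CPM in KO MS, and without S7 and S8 the median was 0.07.

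Lymphocyte markers were low throughout. Of 16 T and NK cell markers 5 were tested, and 2 of them, Klrk1 and Cxcr6, were higher at an unadjusted p under 0.05 (40%, beside 0.516% of all genes). The sum over the list was between 5.80 and 14.9 CPM in the 6 libraries. Klrk1, the NKG2D receptor, was the 1 among the 15 highest-ranked genes without overlap, at 1.13, 1.005 and 0.592 CPM in WT MS and 3.45, 3.14 and 1.46 CPM in KO MS (1.53, SE 0.55, unadjusted p = 0.0153), and without S7 and S8 it was at 0.67 and Cxcr6 at 0.14. Of 8 B cell markers 3 were tested. Of 10 neutrophil markers 1 was tested, the sum was 1.005 to 4.42 CPM, and the defining Ly6g, Mpo and Ngp were at 0 in all 6 libraries. Endothelial markers had a median of 0.14 and stellate cell markers one of 0.13, each over 12 genes with none at an unadjusted p under 0.05. Erythroid genes had a median of 0.39 over 6 genes, with summed levels of 521, 727 and 621 CPM in WT MS and 1023, 863 and 459 CPM in KO MS. Of 10 bile duct markers 3 were tested, with sums between 23.2 and 34.9 CPM, and 6 of 10 adipocyte and pancreas markers were at 0 in all 6 libraries.

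Selenoprotein mRNAs, whose products depend on the selenium that Scly sets free, did not differ between the genotypes by the test. Of 24 selenoprotein genes 20 were tested, 14 had a log2 fold change above 0, the median was 0.19, and none was at an unadjusted p under 0.05 or free of overlap in either direction. The KO libraries instead differed among themselves. Selenop, which encodes selenoprotein P, was at 10110, 15760 and 19030 CPM in WT MS and at 36720, 18740 and 9295 CPM in KO MS (log2 fold change 0.53, SE 0.49). S7 was above all WT libraries, S8 was among them, and S9 was below them all. Gpx1, the cytosolic glutathione peroxidase known to be the selenoprotein mRNA most sensitive to selenium supply, was at 1060, 1961 and 2090 CPM in WT MS and at 3951, 2229 and 1282 CPM in KO MS (0.55, SE 0.40). Gpx4, the phospholipid hydroperoxide glutathione peroxidase, was at 119, 169 and 237 CPM in WT MS and at 516, 234 and 108 CPM in KO MS (0.71, SE 0.49).

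Selenof, of the endoplasmic reticulum, was at 192, 280 and 356 CPM in WT MS and at 643, 333 and 155 CPM in KO MS, the same order of libraries. Txnrd1, the cytosolic thioredoxin reductase (-0.09, SE 0.26), and Sephs2, the selenophosphate synthetase that is itself a selenoprotein (-0.10, SE 0.28), varied less, with Sephs2 between 860 and 1022 CPM in all 6 libraries. The summed selenoprotein level was 13640, 20660 and 24150 CPM in WT MS and 44750, 23970 and 12800 CPM in KO MS. In S7, 12 of 20 genes were above the highest WT library, and in S9, 11 of 20 were below the lowest, beside 38.3% and 31.4% of all genes. The median was 0.40 without S9 and -0.39 without S7 and S8, so the sign of the list turned with the libraries kept. Gpx2, Dio2 and Selenov were at 0 in all 6 libraries.

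Genes of selenium supply and selenocysteine synthesis had a median of -0.05 over 16 tested of 17, none at an unadjusted p under 0.05. Among them were Lrp2, the receptor that takes up selenoprotein P in the kidney (-1.08, unadjusted p = 0.105), Secisbp2, which binds the selenocysteine insertion element (-0.39, unadjusted p = 0.284), and Pstk, the kinase that prepares the selenocysteine tRNA (0.50, unadjusted p = 0.292). Selenbp2, a selenium-binding protein of the mouse liver, was at 8.55, 46.7 and 54.8 CPM in WT MS and at 11.7, 38.0 and 18.6 CPM in KO MS, with overlapping groups.

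Host genes of small nucleolar RNAs also differed between the KO libraries. These short spliced transcripts carry in their introns the RNAs that guide the modification of ribosomal RNA. Of 19 listed 13 were tested, and 12 were above 0 with a median of 0.37. Snhg1 and Zfas1 were higher at an unadjusted p under 0.05 (15.4%, beside 0.516% of all genes). Snhg1 was at 1.51, 2.23 and 1.66 CPM in WT MS and at 6.62, 5.96 and 1.65 CPM in KO MS. Zfas1 was at 7.17, 7.71 and 10.3 CPM in WT MS and at 35.9, 18.5 and 4.96 CPM in KO MS. All 13 tested genes were above every WT library in S7, beside 38.3% of all genes. In S9, 8 of 13 were below every WT library, beside 31.4% of all genes. Without S7 and S8 the list's median was -0.53, with 4 of 17 above 0, and the log2 fold changes of Snhg1 and Zfas1 turned from 1.37 and 1.23 to -0.14 and -0.77. Rn45s itself turned from 1.46 to -1.16 in the same comparison.

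**Figure D4:**
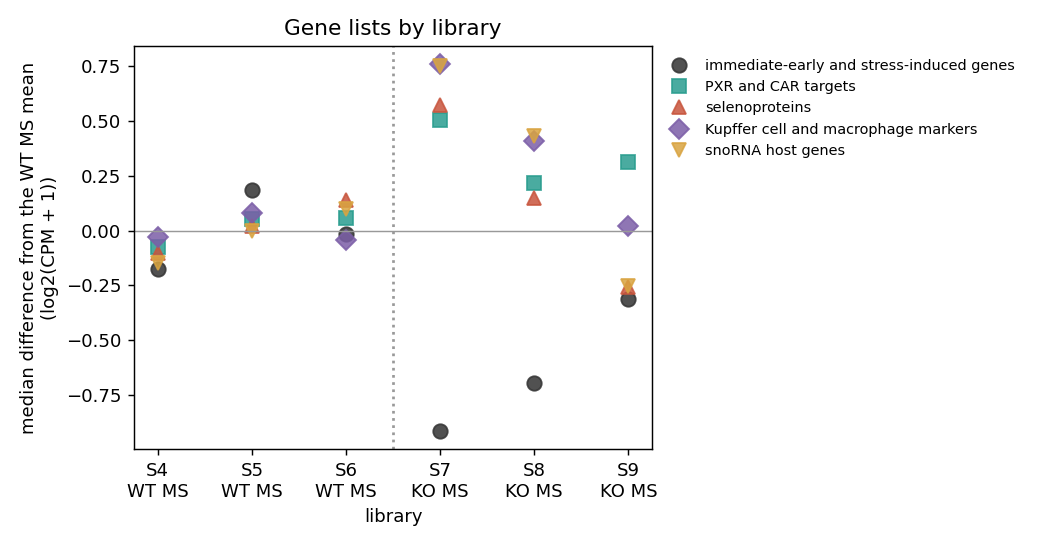
Each point is the median, over the tested genes of a list, of the difference between 1 library and the WT MS mean on the log2(CPM + 1) scale, with the WT MS libraries S4 to S6 left and the KO MS libraries S7 to S9 right of the dotted line. Selenoproteins and snoRNA host genes lie above 0 in S7 and S8 and below it in S9, macrophage markers are above 0 in S7 and S8 and near it in S9, immediate-early genes are below 0 in all 3 and PXR and CAR targets above 0 in all 3.

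Several other genes without overlap between the groups ranked among the smallest unadjusted p. Rasgrf2, a Ras exchange factor, was at 1.13, 0.447 and 0.592 CPM in WT MS and at 2.76, 2.04 and 1.65 CPM in KO MS (1.56, SE 0.43). Dgkh, a diacylglycerol kinase, was at 1.01, 0.894 and 0.829 CPM in WT MS and at 1.52, 2.51 and 2.63 CPM in KO MS (1.28, SE 0.48). Others of the 15 were Unc119, Lipt2, Hace1 and P2ry10b, with log2 fold changes from 0.72 to 1.80, beside genes described above.

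Among the lower genes, Serpine2, a protease inhibitor, was at 4.91, 8.15 and 6.04 CPM in WT MS and at 1.38, 2.82 and 2.04 CPM in KO MS (-1.62, SE 0.53, unadjusted p = 0.00878). Fancg, of the Fanconi anaemia DNA repair complex, was at 2.52, 2.12 and 2.49 CPM in WT MS and at 0.966, 0.471 and 1.07 CPM in KO MS (-1.46, SE 0.45), and the DNA helicase Recql4 was at -1.59 (SE 0.51). Egln3, an oxygen-sensing prolyl hydroxylase, was at 23.0, 21.7 and 23.0 CPM in WT MS and at 12.4, 16.8 and 16.2 CPM in KO MS (-0.57, SE 0.20, unadjusted p = 0.0132), with little spread within a group. Fgfr3, a fibroblast growth factor receptor, was at 25.7, 19.3 and 18.5 CPM in WT MS and at 8.14, 11.9 and 15.96 CPM in KO MS (-0.81, SE 0.28). Tnik (-1.17) and Tspyl4 (-1.27) completed the lower genes.

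Lists of lipid and hormone metabolism held few or no genes at an unadjusted p under 0.05. Over all genes 0.516% were higher and 0.408% lower at that threshold. None of 30 fatty acid oxidation and PPAR-alpha genes was at an unadjusted p under 0.05 (median 0.13), none of 22 cholesterol synthesis genes (0.12), none of 25 tested metal and acute phase genes (0.04) and none of 33 tested nuclear receptors (-0.04). Of 29 tested genes of fatty acid synthesis and lipid droplets (-0.10), the acyltransferase Lpcat2 was the 1 at that threshold, at 1.64, 2.12 and 1.42 CPM in WT MS and 4.83, 5.18 and 2.04 CPM in KO MS. Of 27 steroid, retinol and bile acid enzymes (0.11) Rdh9 was higher and Cyp17a1 lower. Of 17 tested clock genes (-0.16) Nfil3 was lower. Among 24 male-biased liver genes the median was -0.37 with 7 above 0 and none at that threshold, and among 12 tested female-biased genes it was 0.06. Of the 27 tested clustered histone genes (0.02) Hist1h4m was higher and Hist1h4n lower. A list of 15 genes picked for qPCR in these mice was chosen on these samples and so is no independent evidence. Of its members Ces1g and Abcc3 were higher and Slc25a25 and Arl4d lower at an unadjusted p under 0.05, with a median of 0.05.

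Genes near Scly were looked at because sequence of another strain can stay linked to a targeted gene. Within 5 Mb of Scly 63 of 138 genes were tested, 34 were above 0, and the median was 0.02. None was at an unadjusted p under 0.05, beside 0.924% of all genes. At that share, finding none among 63 says little about the region. In 3 of them the KO libraries lay above and in 3 below the WT libraries, beside 2.23% and 2.49% of all genes. The median was 0.03 over 24 genes within 2 Mb and 0.02 over 83 genes within 10 Mb.

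The genes that differed without adjustment on adequate selenium were then set beside their values on low selenium, where different libraries of the same 2 genotypes were compared. On low selenium 694 genes (5.78%) were higher and 657 (5.47%) lower in KO at an unadjusted p under 0.05, and 1 gene passed the adjusted test. Of the 62 genes higher on adequate selenium, 26 (41.9%) had a log2 fold change above 0 on low selenium, beside 54.2% of all genes, and 7 (11.3%) were also higher at an unadjusted p under 0.05. Among these 7 were Ces1g, Abcc3, Dgkh, Mgst3, Gsta1 and Cyp2a22. Of the 48 lower genes other than Scly, 28 (58.3%) were below 0 on low selenium, beside 45.8% of all genes, and 7 (14.6%) were also lower at that threshold, namely Gadd45g, Dusp1, Arl4d, Cebpd, Hist1h4n, Urad and Sertad4. In 51 of the 12009 genes tested the libraries of the 2 genotypes did not overlap in the same direction on both diets. Whether that is more than chance would give was not tested.

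Arl4d was at 47.4, 44.0 and 44.0 CPM in WT LS and at 8.32, 11.4 and 10.5 CPM in KO LS (log2 fold change -2.16, unadjusted p = 5.28e-05), so the groups were wide apart on low selenium where they overlapped on adequate selenium. Abcc3 was at 46.2, 43.6 and 44.2 CPM in WT LS and at 108, 158 and 84.8 CPM in KO LS (1.39, unadjusted p = 0.000939). Cebpd was at 13.4, 12.8 and 9.97 CPM in WT LS and at 6.06, 5.003 and 6.62 CPM in KO LS (-1.02, unadjusted p = 0.00142). All of these kept KO and WT apart on low selenium. Urad, of urate breakdown, was at 27.8, 27.3 and 22.5 CPM in WT MS against 18.1, 18.5 and 18.4 CPM in KO MS, and at 26.4, 26.6 and 22.02 CPM in WT LS against 15.6, 11.9 and 9.74 CPM in KO LS, and it is named here, as are Cyp2a22 and Sertad4, after its values were seen.

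Other genes had log2 fold changes of opposite sign on the 2 diets. Lilra5, Wfdc17 and Xlr3a were higher on adequate and lower on low selenium, and Rcan2, an inhibitor of calcineurin, lower on adequate and higher on low selenium, each at an unadjusted p under 0.05. Wfdc17, Xlr3a and Rcan2 are named after their values were seen. Cyp17a1 was at -1.80 on adequate and 0.83 on low selenium, with an unadjusted interaction p of 0.00271, and the value on low selenium was 0.35 without S12, a KO LS library that stood apart from S10 and S11. The immediate-early list had a median of -0.70 on adequate and 0.16 on low selenium, with 20 of 35 genes above 0 on low selenium. That sign rested on S12: without it the median on low selenium was -0.28 with 12 of 35 above 0, and Jun went from -0.13 to -1.19. The macrophage markers had medians of 0.46 and -0.20, the latter -0.28 without S12. The PXR and CAR targets had medians of 0.29 and 0.39, the latter 0.48 without S12. In the test of the genotype by diet interaction 808 genes (6.73%) were at an unadjusted p under 0.05 with edgeR, no gene passed the adjusted test, and the smallest adjusted p was 0.65, while limma voom called 2081 genes. A difference between the diets is therefore not shown for any single gene by edgeR. Without S12, 21 of the 62 higher and 25 of the 48 lower genes kept their sign on low selenium, beside 49.4% and 50.6% of all genes.

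**Figure D5:**
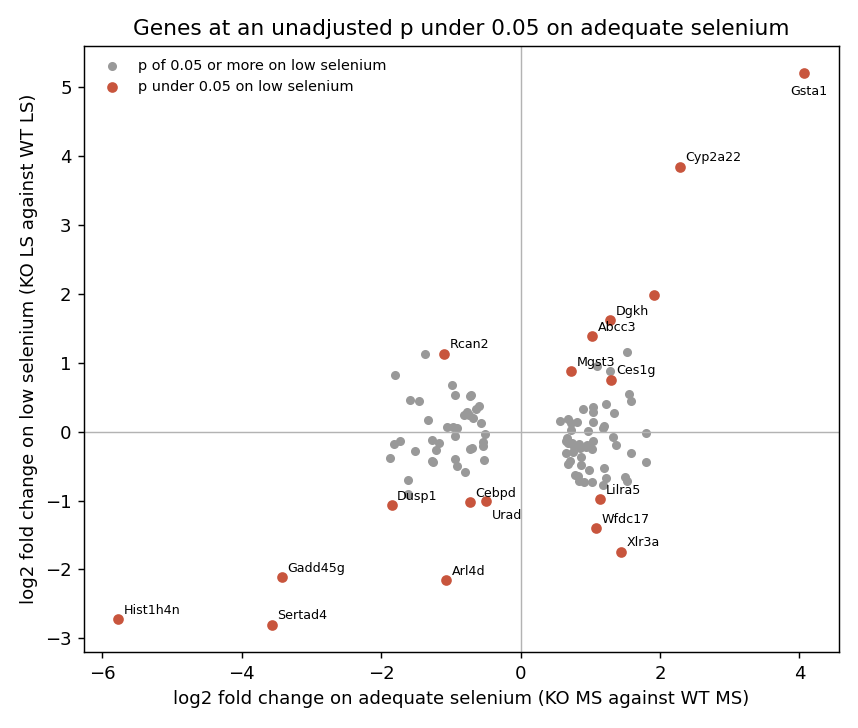
Each point is 1 of the genes at an unadjusted p under 0.05 on adequate selenium other than Scly, with its log2 fold change there (KO MS against WT MS, x axis) and on low selenium (KO LS against WT LS, y axis). Red points, all but 1 of them labelled, are also at an unadjusted p under 0.05 on low selenium: 14 lie in the same direction on both diets and 4, Lilra5, Wfdc17, Xlr3a and Rcan2, in opposite directions.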

How the data were processed

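Poly(A) RNA of liver was sequenced from strand-specific libraries. Per the labels and the study's methods, the authors trimmed reads with cutadapt, aligned them in Partek Flow (STAR, mm10) and deposited estimated counts per gene, which split a read that fits several genes; 89.8% of the values were whole. The annotation was not given in the sources used here, nor were tool versions. DESeq2 comparisons of the authors (p, FDR and fold) were not used. Libraries are named from the column headers. Rounded counts were fitted with edgeR 4.0.16 in R 4.3.3 (filterByExpr with a minimum of 10, TMM, quasi-likelihood F test, 4 groups of 3 libraries sharing 1 spread), with Benjamini-Hochberg adjustment over 12009 genes. DESeq2 1.42.0 and limma 3.58.1 voom were alternatives, beside other scalings, filters and left-out libraries. Scripts were tested on simulated data. Named genes are Scly, Rn45s, genes called by edgeR or DESeq2, up to 15 per direction with the smallest p among genes whose groups did not overlap, up to 4 members of each list with the smallest p, the members that define a list's role, and Dmgdh, Ckb, Gnmt and Shmt1. A few genes that the rule names are not reported here. The comparison, lists and genes were chosen with earlier results of these data known. With 7561008 to 9651901 counts a library, a gene at 1 CPM rests on few counts; intervals cover counting error only.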

Additional observations from a re-analysis of the deposited data

Results flagged for a closer look

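Among the named genes, 4 had KO and WT libraries that did not overlap on either diet but lay apart in opposite directions. The share of all tested genes that did so was not counted, so the 4 are a description only. The difference between the diets was tested as an interaction that did not pass after adjustment (smallest adjusted p = 0.65 by edgeR). Over all tested genes, the log2 fold changes on the 2 diets had a Spearman correlation of -0.243. Opposite signs were therefore not particular to these 4. Cyp1a1, a cytochrome P450 induced through AHR, had a log2 fold change of 0.81 on adequate and -1.48 on low selenium, a difference of 2.29 (unadjusted p = 0.00674). Angptl4, an inhibitor of lipoprotein lipase, was at 78.4, 76.2 and 95.7 CPM in WT MS, 117, 96.5 and 119 CPM in KO MS, 206, 144 and 133 CPM in WT LS and 96.4, 107 and 72.3 CPM in KO LS, a difference of 1.21 (unadjusted p = 0.00321). Vsig4, of Kupffer cells, had 0.71 and -0.43, a difference of 1.14 (unadjusted p = 0.0124). Kdr, the endothelial VEGF receptor, had 0.27 and -0.40, a difference of 0.67 (unadjusted p = 0.0323). In Vsig4, Cyp1a1 and Kdr S7 was the highest KO MS library and S9 the lowest.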

How the results depend on the processing

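Scly kept its sign and its call under all 23 alternatives tried (log2 fold change -3.92 to -3.78). The count of genes called was 1 with edgeR under each scaling, filter and left-out library, 3 with DESeq2 and 905 with limma voom. No gene was called for the interaction except with limma voom (2081) and when libraries were left out one at a time (0 to 3, with 3 without S11). The 111 genes at an unadjusted p under 0.05 became 203 with no filter on low counts, 173 with an adjustment for transcript length and GC content, 3390 with limma voom, 697 without S7 and S8 (chosen after seeing the data, as were the low-selenium list medians without S12; S9 alone is then assumed to vary like the other groups) and 77 to 1996 when 1 library was left out; the count was 1996 without S9 and 226 without S12. Without S7 and S8 the log2 fold changes of Hist1h4m (-0.27), Snhg1 (-0.14), Zfas1 (-0.77) and Lilra5 (-0.18) turned negative, 14 of the 62 higher genes lost their sign, and none of the 48 lower genes did, Scly left out. The cause of these shifts was not tested. Under the alternatives the 161 named genes had 3657 values. Of these, 3439 kept their direction and side of the threshold or moved by less than the replicate spread. Another 155 moved further, 59 newly passed the threshold (with limma voom or DESeq2) and 4 were counted as reversed. These 4 are not all the changes of sign. Without S7 and S8, Rn45s (1.46 to -1.16), Gpx4 (0.71 to -0.70), Gpx1 (0.55 to -0.42), Nqo1 (0.76 to -0.29) and Selenoh (0.39 to -0.70) also turned negative. No paired analysis was possible because the columns carry no replicate number of the labels. Genes under 1 CPM rest on few counts, and 3 against 3 libraries limit the rest.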
